A study of Homo sapiens with 6 samples.

Results

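The interferon pathway genes examined here were 37 named members among 60617 genes of the deposited count table. They comprised 6 receptor chains and receptor-bound kinases, 5 transcription factors, 6 sensors of nucleic acid with their adaptors, and 20 interferon-stimulated genes, called targets below. Members were picked by gene name, and all 37 names matched a row. Interferons are secreted cytokines made when cells sense viral nucleic acid. They bind paired receptor chains, whose JAK kinases phosphorylate STAT proteins. A complex that includes STAT2 and IRF9 then binds a DNA element in front of many antiviral genes and raises their transcription.

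The cells were TC-71, an established human Ewing sarcoma line, untreated and grown in medium with serum. RNA came from cells with knockout of XG, which encodes the Xg blood group glycoprotein of the cell surface, and from wildtype cells, with 3 libraries of each genotype. The comparison asks which transcripts differ in cells with XG knockout. The labels give neither whether the knockout cells were a clone or a pool nor whether replicates were separate cultures. The p-values below therefore reflect variation among these libraries alone, and that variation may be technical.

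Libraries held 22557187 to 31214099 counted fragments. XG itself had 746, 948 and 836 counts in knockout libraries, against 1254, 1228 and 999 in wildtype libraries, which was 64.8% of the wildtype level after scaling (log2 fold change -0.63, SE 0.0478, adjusted p = 1.65e-06 by edgeR). The 10 Ewing sarcoma markers were all detected and summed to 2612 to 2668 CPM (counts scaled to library size) in knockout libraries and 2703 to 2756 CPM in wildtype libraries. CCND1 made up 1358 CPM of this sum in knockout and 1417 CPM in wildtype cells on average. CD99, another of these markers, was called lower (log2 fold change -0.12, SE 0.0253, adjusted p = 0.0302 by edgeR). After correction for GC content CD99 was not called (log2 fold change -0.068, adjusted p = 0.142 by edgeR). The marker FCGRT was then called higher (log2 fold change 0.12, adjusted p = 0.0041 by edgeR). Of 10 leukocyte markers 6 had no count in any library, CD3E and MS4A1 included, and the list summed to 0.345 to 0.642 CPM in knockout and 0.108 to 0.345 CPM in wildtype libraries. Endothelial markers (1 of 4 at 0) summed to 0.0316 to 0.161 CPM in knockout and 0.0384 to 0.253 CPM in wildtype libraries. Fibroblast markers (0 of 6 at 0) summed to 45.1 to 53.1 CPM in knockout and 45.6 to 48.7 CPM in wildtype libraries. Of the 5 tested, 3 had positive and 2 negative fold changes, and edgeR called 0. COL6A3 was at 0.47 (SE 0.120, adjusted p = 0.0600 by edgeR) and LUM at -0.24 (adjusted p = 0.391 by edgeR). After correction for GC content COL6A3 was called higher (log2 fold change 0.49, adjusted p = 0.0240 by edgeR). The part of any such cells in the values below was not tested, and in bulk RNA fewer cells of a type and less RNA per cell cannot be told apart.

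None of the 37 members passed the test between XG knockout and wildtype cells. After removal of genes with low counts 28 members were tested, and edgeR's quasi-likelihood test, with Benjamini-Hochberg adjustment over all genes, called 0 higher and 0 lower at an adjusted p under 0.05. Among all 14425 genes tested, 0.444% were called higher and 0.915% lower. At an unadjusted p under 0.05, 1 member was higher (IFI44L) and 3 were lower (ISG15, IFIH1 and IRF3), where the shares of all genes were 6.98% and 9.81%. The median log2 fold change of tested members was 0.0063, beside 0.0019 for all genes tested. Of the 28, 15 lay within 0.1 of 0 on the log2 scale, as did 62.1% of all genes tested. DESeq2, limma voom and edgeR after correction for GC content also called 0 members, where they called 1.39%, 1.5% and 2.35% of all genes. DESeq2 gave an adjusted p to 16 of the 28 tested members, and the other 12, IFI44L and IFIH1 among them, could not be called by it. Its share of 1.39% is over all 14425 genes, those without an adjusted p included.

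Levels of the pathway, given as CPM per kilobase of exon, spanned a wide range. JAK1 was the highest member at 99.2 ± 1.23 CPM per kilobase in knockout and 98.9 ± 1.03 in wildtype cells (SD, n = 3). ISG15 came next at 23.2 ± 4.48 in knockout and 27.7 ± 1.35 in wildtype cells. The following members in order, IRF3, IFIT5, IFNGR2, MAVS and IFNAR1, lay between 9.43 and 14.3 CPM per kilobase in both genotypes. At the other end, MX2 and XAF1 had no counts in any library.

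**Figure D1:**
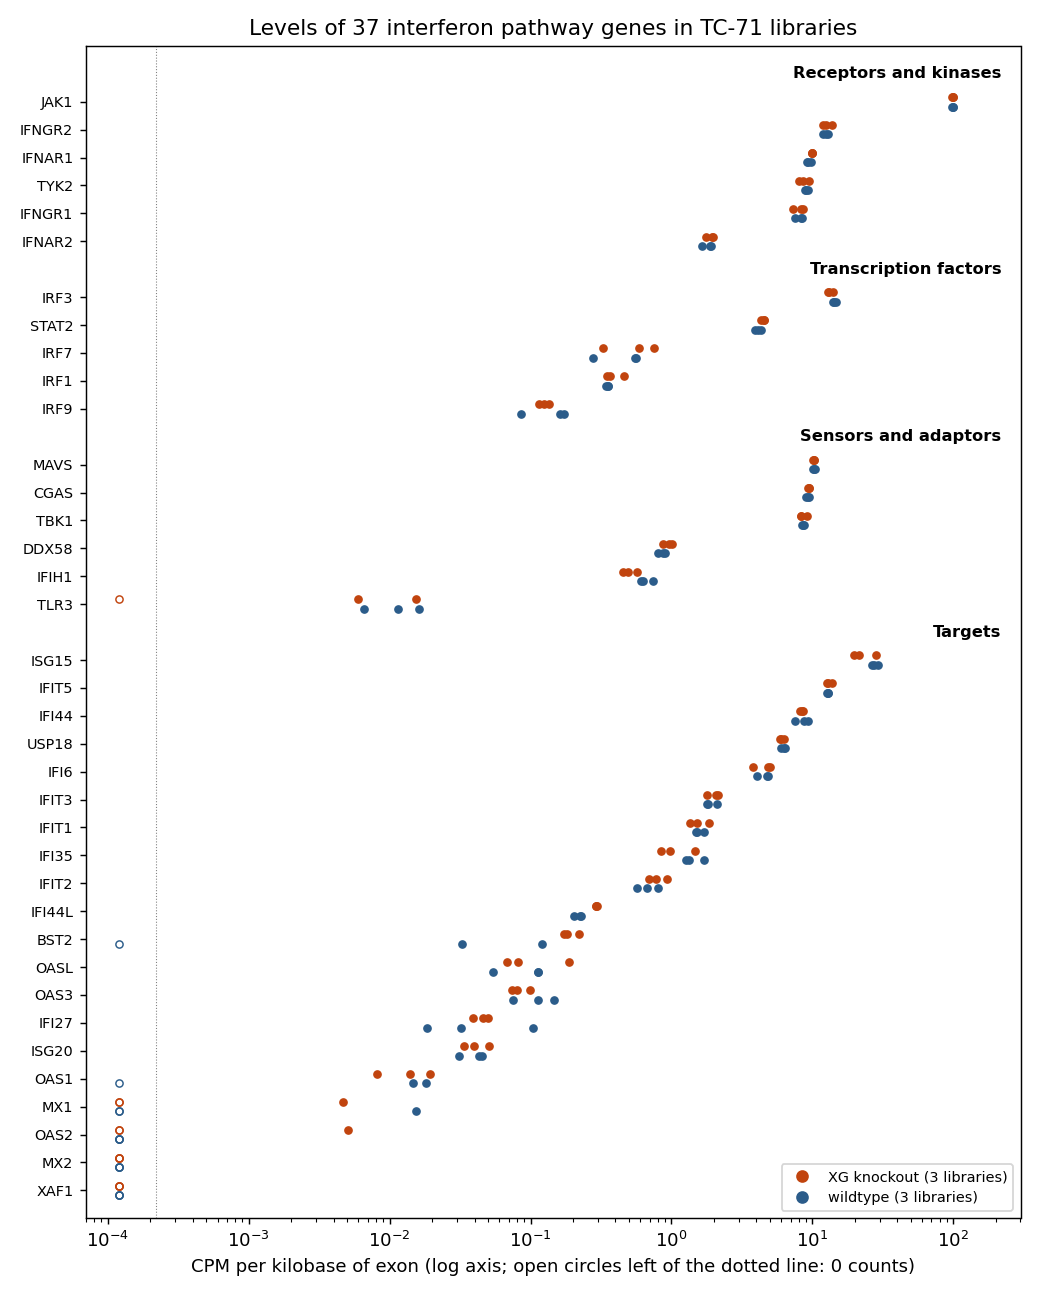
Level of each of the 37 members in CPM per kilobase of exon (log axis), by role, with 1 point per library for XG knockout (upper of each pair of rows, orange) and wildtype (lower, blue). JAK1 averages 99.2 in knockout and 98.9 in wildtype cells, and MX2 and XAF1 have 0 counts in all 6 libraries.

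Receptor chains and their kinases were present in every library, and none was called. IFNAR1, the chain of the type I interferon receptor that binds TYK2 (chromosome 21, 33324429 to 33359864, plus strand, GRCh38), had 67.9, 68.4 and 68.1 CPM in knockout replicates 1, 2 and 3, against 67, 64.1 and 63.4 CPM in wildtype replicates 1, 2 and 3. Knockout values all exceeded wildtype values, by a small margin (log2 fold change 0.070, SE 0.0387, adjusted p = 0.381 by edgeR), and after correction for GC content the log2 fold change was 0.040. IFNAR2, the chain that binds JAK1, had 9.15, 8.06 and 9.0 CPM in knockout and 8.71, 7.56 and 8.85 CPM in wildtype libraries, and the groups overlapped. IFNAR2 shared 44.2% of its exon bases with a gene on the same strand, AP000295.1, so fragments falling in both were not counted. IFNGR1, the ligand-binding chain for interferon gamma, averaged 26.5 ± 2.24 CPM in knockout and 26.5 ± 1.67 CPM in wildtype cells (SD, n = 3). Its partner chain IFNGR2 averaged 37.6 ± 2.86 CPM in knockout and 36.7 ± 1.68 CPM in wildtype cells.

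Of the kinases, JAK1, which serves both receptor types, had 1265, 1256 and 1235 CPM in knockout libraries and 1234, 1249.9 and 1259 CPM in wildtype libraries. It was the most precisely measured member, at a log2 fold change of 0.0050 (SE 0.0237). TYK2, the kinase of IFNAR1 (chromosome 19, 10350529 to 10380572, minus strand), had 53.5, 57.3 and 63.3 CPM in knockout and 59.4, 59.8 and 62.2 CPM in wildtype libraries. Knockout replicates 1 and 2 lay below the wildtype range and replicate 3 above it. The TYK2 log2 fold change was -0.058, and 0.030 after GC correction.

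The transcription factors ranged from abundant to scarce. STAT2, which carries the activation domain of the interferon-induced complex (chromosome 12, 56341597 to 56360167, minus strand), had 26.6, 28.2 and 28 CPM in knockout libraries, against 25.6, 24.3 and 26.6 CPM in wildtype libraries. The genotypes did not overlap, but the lowest knockout and highest wildtype values were close (log2 fold change 0.12, SE 0.0553, adjusted p = 0.298 by edgeR). IRF3, which TBK1 phosphorylates to start interferon transcription (chromosome 19, 49659569 to 49665875, minus strand), had 49.4, 48.7 and 53.1 CPM in knockout libraries and 53.2, 53.7 and 55.4 CPM in wildtype libraries. Knockout replicate 3 was next to the lowest wildtype library, again without overlap (log2 fold change -0.10, SE 0.0450, adjusted p = 0.265 by edgeR). IRF1, a factor induced by interferon gamma, had 89, 86 and 83 counts in knockout and 74, 72 and 62 counts in wildtype libraries. After scaling this was 3.05 ± 0.457 CPM in knockout and 2.73 ± 0.0481 CPM in wildtype cells (SD, n = 3). In CPM the genotypes overlapped for IRF1 (log2 fold change 0.15, SE 0.150, adjusted p = 0.677 by edgeR).

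IRF7, which amplifies the interferon response, had 38, 27 and 57 counts in knockout and 40, 19 and 33 counts in wildtype libraries, a spread wider than the difference. IRF9, the DNA-binding subunit of the STAT2 complex, had 12, 13 and 13 counts in knockout and 17, 8 and 13 counts in wildtype libraries. IRF9 shared 42.2% of its exon bases with AL136295.5 on the same strand, so fragments falling in both were not counted. Among all tested members the genotypes did not overlap in 3 that were higher in knockout libraries (IFNAR1, STAT2 and IFI44L) and 2 that were lower (IRF3 and IFIH1). Over all genes tested these shares were 10.7% and 9.8%.

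Among the sensing genes, MAVS, CGAS and TBK1 stood at 10.2, 9.38 and 8.59 CPM per kilobase in knockout cells, above the RNA sensors IFIH1 and DDX58 at 0.502 and 0.948. MAVS, the mitochondrial adaptor of the RNA helicases, had 119, 121 and 119.9 CPM in knockout and 123, 119 and 122 CPM in wildtype libraries. CGAS, which makes a cyclic dinucleotide on binding DNA, averaged 39.1 ± 0.488 CPM in knockout and 38.7 ± 1.04 CPM in wildtype cells (SD, n = 3). TBK1, the kinase downstream of both, averaged 54.8 ± 2.76 CPM in knockout and 54.6 ± 0.999 CPM in wildtype cells. Log2 fold changes of MAVS, CGAS and TBK1 were -0.012, 0.019 and 0.0075, each smaller than its SE, and each changed sign after GC correction.

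The helicase sensors had fold changes of opposite sign, and neither passed the test. IFIH1, which encodes MDA5, the sensor of long double-stranded RNA (chromosome 2, 162267074 to 162318684, minus strand), had 57, 92 and 72 counts in knockout libraries and 89, 98 and 70 counts in wildtype libraries. After scaling these were 2.29, 2.91 and 2.48 CPM in knockout, against 3.22, 3.76 and 3.11 CPM in wildtype libraries. Every knockout value of IFIH1 was under every wildtype value (log2 fold change -0.39, SE 0.149, adjusted p = 0.192 by edgeR), and its log2 fold change was -0.41 after GC correction. DDX58, which encodes RIG-I, the sensor of RNA ends, had 4.70, 4.04 and 4.45 CPM in knockout and 4.16, 3.72 and 4.05 CPM in wildtype libraries, with overlap (log2 fold change 0.14, SE 0.122, adjusted p = 0.615 by edgeR). TLR3, the endosomal receptor for double-stranded RNA, had 1, 0 and 3 counts in knockout libraries and 3, 2 and 1 in wildtype libraries and was not tested.

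**Figure D2:**
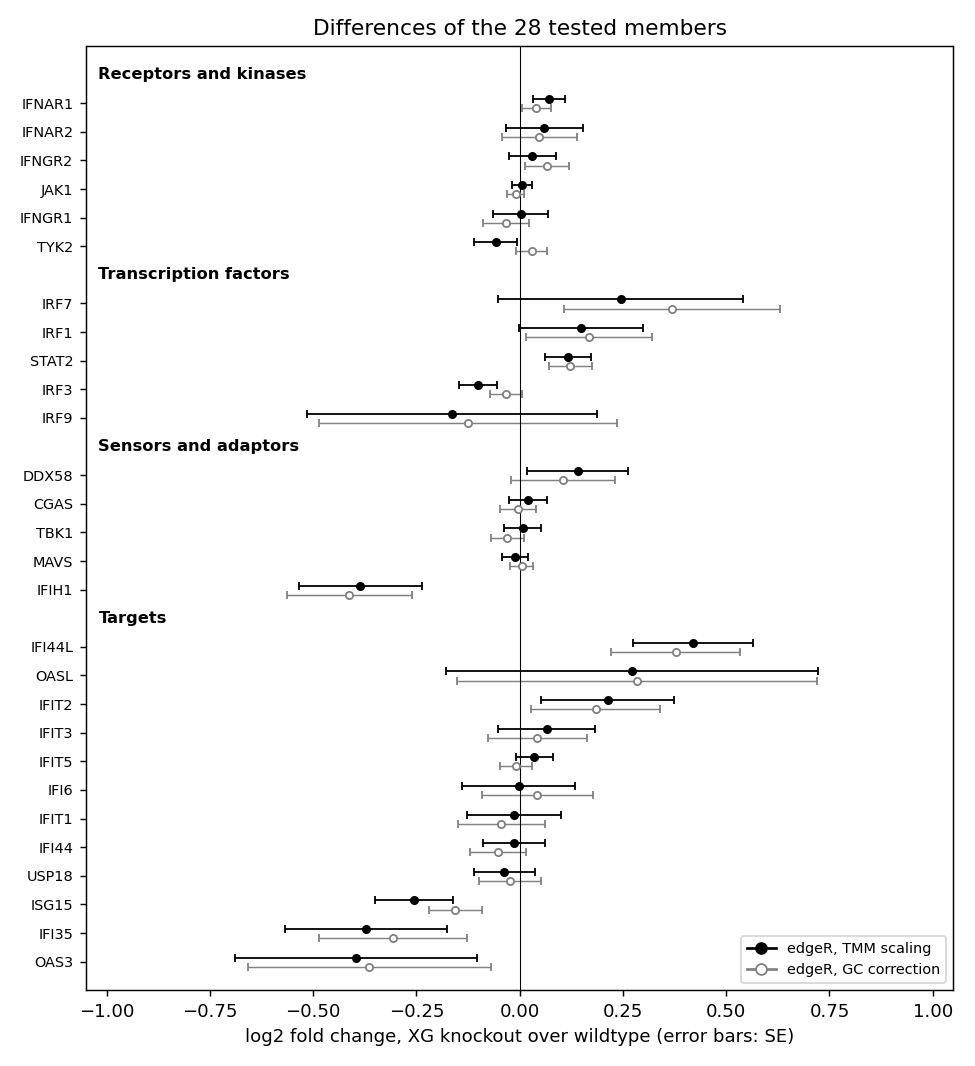
Log2 fold change, XG knockout over wildtype, of the 28 tested members by role, with bars of 1 SE, from the edgeR fit (black) and the same fit after GC correction (open grey). No member passed the adjusted threshold in either fit, and ISG15 stood at -0.26 without and -0.16 with the correction.

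Of the 20 targets 12 were tested, with 5 positive and 7 negative fold changes and a median log2 fold change of -0.0075. ISG15, a ubiquitin-like protein that is joined to other proteins (chromosome 1, 1001138 to 1014540, plus strand), had 425, 592 and 709 counts in knockout libraries and 701, 603 and 531 counts in wildtype libraries. These were 17.1, 18.7 and 24.5 CPM in knockout, against 25.3, 23.1 and 23.6 CPM in wildtype libraries. Knockout replicates 1 and 2 lay below the wildtype range and replicate 3 within it (log2 fold change -0.26, SE 0.0937, adjusted p = 0.172 by edgeR). Without knockout replicate 3 the ISG15 log2 fold change was -0.42, with an adjusted p of 1.01e-05 by edgeR. Other settings of the analysis gave ISG15 adjusted p values of 1.01e-05 to 0.512, that one included. With no filter on low counts ISG15 was called lower (adjusted p = 0.00815 by edgeR), as were 1.83% of all genes with a count.

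IFI44L, a relative of IFI44 (chromosome 1, 78619922 to 78646145, plus strand), had the smallest p of all members. It had 74, 95 and 88 counts in knockout libraries, against 58, 61 and 52 counts in wildtype libraries. That was 2.97, 3.0 and 3.04 CPM in knockout and 2.10, 2.34 and 2.31 CPM in wildtype libraries, without overlap (log2 fold change 0.42, SE 0.146, adjusted p = 0.155 by edgeR). Its adjusted p lay at 0.133 to 0.384 over the other settings that gave one, which DESeq2 and the filter of 100 counts did not. Its neighbour IFI44 (chromosome 1, 78649796 to 78664078, plus strand) had 17.2, 17.6 and 16.6 CPM in knockout and 17.8, 15.2 and 19 CPM in wildtype libraries (log2 fold change -0.013, SE 0.0754, adjusted p = 0.949 by edgeR). The difference between the fold changes of these adjacent genes was not tested.

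**Figure D3:**
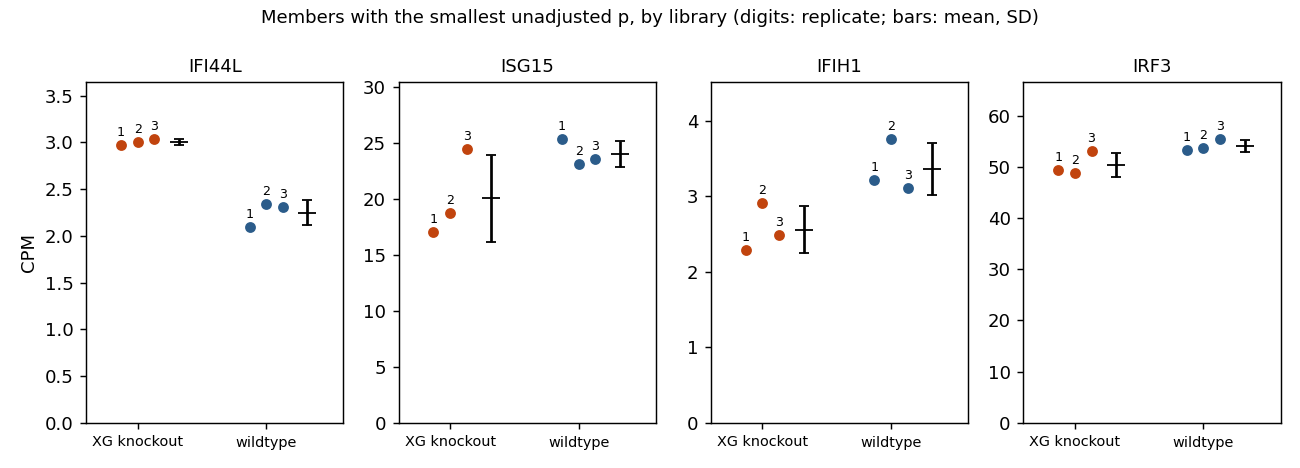
CPM by library for the 4 members with the smallest unadjusted p, XG knockout left and wildtype right, with digits for the replicate and bars for the mean and SD of 3 libraries. For ISG15, knockout replicate 3 stands at 24.5 CPM among the wildtype libraries, while IFI44L, IFIH1 and IRF3 show no overlap of genotypes.

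The IFIT genes encode antiviral proteins, several of which bind foreign RNA, and lie together on chromosome 10 from 89283694 to 89420997. IFIT5 had the highest level per kilobase of the 4, with 55.8, 52 and 51.1 CPM in knockout and 51.8, 52.2 and 50.8 CPM in wildtype libraries. IFIT1 had 8.47, 6.19 and 7.04 CPM in knockout and 6.83, 7.90 and 6.98 CPM in wildtype libraries. IFIT3 averaged 5.04 ± 0.484 CPM in knockout and 4.84 ± 0.429 CPM in wildtype cells, and IFIT2 averaged 3.27 ± 0.501 CPM in knockout and 2.77 ± 0.491 CPM in wildtype cells (SD, n = 3). The genotypes overlapped for all 4 genes, and their log2 fold changes ran from -0.013 in IFIT1 to 0.21 in IFIT2. That of IFIT2 ran from 0.10 to 0.36 when single libraries were left out.

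The other tested targets were also not called in the edgeR fit, and OAS3 and OASL rested on few counts. USP18, which removes ISG15 from proteins and dampens signalling at IFNAR2, averaged 11.3 ± 0.365 CPM in knockout and 11.6 ± 0.397 CPM in wildtype cells (SD, n = 3). IFI6, a small membrane protein, averaged 3.83 ± 0.542 CPM in knockout and 3.85 ± 0.367 CPM in wildtype cells. IFI35, which binds the related protein NMI, had 48, 53 and 84 counts in knockout and 73, 65 and 75 counts in wildtype libraries (log2 fold change -0.37, SE 0.197, adjusted p = 0.355 by edgeR). After scaling, knockout replicates 1 and 2 of IFI35 lay below the wildtype range and replicate 3 within it. Its log2 fold change was -0.65 without knockout replicate 3 (adjusted p = 0.0251 by edgeR) and -0.20 without knockout replicate 2. OAS3, which makes an oligoadenylate messenger on binding double-stranded RNA, had 20, 19 and 19 counts in knockout and 17, 24 and 27 counts in wildtype libraries. OASL, a relative that lacks this activity, had 6, 9 and 19 counts in knockout and 11, 5 and 9 counts in wildtype libraries.

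The remaining 8 targets and TLR3 were left out of the test for low counts. MX2, a GTPase that restricts retroviruses, and XAF1, a binding partner of the apoptosis inhibitor XIAP, had 0 counts in all 6 libraries. A count of 0 over 3 libraries allows up to 0.0353 CPM in knockout and 0.0391 CPM in wildtype cells (3 counts of the summed libraries, counting error only). MX1, the cytoplasmic relative of MX2, had 1, 0 and 0 counts in knockout and 0, 0 and 3 counts in wildtype libraries. OAS1, which makes the same messenger as OAS3, had 1, 3 and 2 counts in knockout and 2, 0 and 2 in wildtype libraries. OAS2, a further enzyme of that family, had 0, 1 and 0 counts in knockout and 0, 0 and 0 in wildtype libraries. ISG20, an exonuclease, had 9, 9 and 7 counts in knockout and 9, 8 and 5 in wildtype libraries. IFI27, a relative of IFI6, had 4, 6 and 6 counts in knockout and 12, 2 and 3 in wildtype libraries.

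Of these 9, BST2 was the gene whose genotypes did not overlap. It encodes tetherin, a membrane protein that holds budding virions on the cell (chromosome 19, 17402939 to 17405630, minus strand). BST2 had 5, 6 and 7 counts in knockout libraries, against 1, 0 and 3 counts in wildtype libraries. Every knockout value was above the wildtype values, as in 7.05% of genes with any count. In the edgeR fit with no filter on low counts the BST2 log2 fold change was 1.91 (SE 0.825), and at an adjusted p of 0.292 it was not called.

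**Figure D4:**
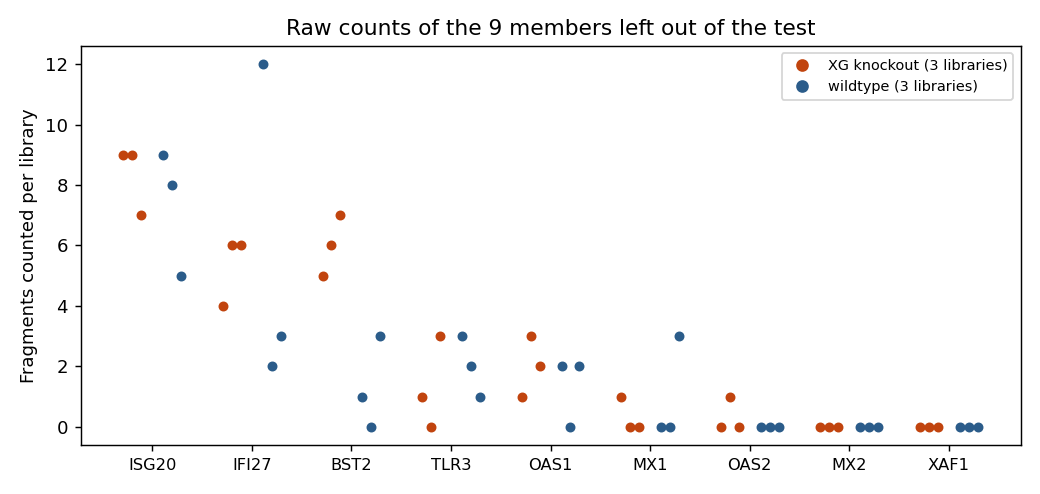
Fragments counted per library for the 9 members left out of the test, XG knockout (left, orange) and wildtype (right, blue). BST2 has 5, 6 and 7 counts in knockout and 1, 0 and 3 in wildtype libraries, and MX2 and XAF1 have 0 throughout.

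Promoter windows from RefSeq (GRCh38.p14, 250 bases before to 50 bases after the transcription start) were matched for 28 members, DDX58 under its symbol RIGI. They were searched on both strands for the core of the interferon-stimulated response element, GAAA followed by NN and again GAAA (on the other strand TTTC, NN, TTTC), with overlapping matches kept. A match was found in 12 of 15 targets, 2 of 5 sensors and adaptors (IFIH1 and TLR3), 0 of 3 transcription factors and 0 of 5 receptors and kinases. Of the 27305 genes with an entry 4.38% held one. A gene with several transcription starts was counted if any of its windows held a match. Among targets it was found in 8 of 9 that were tested and 4 of 6 that were left out for low counts. A match describes these letters and shows no binding.

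The 3 targets with a match and the highest levels are shown first. The 3 with the fewest counts among targets that held a match and were left out of the test follow. Every promoter shown was thus chosen for holding a match, at high or low expression. XAF1 and OAS1, also left out for low counts, had promoter windows without a match and are not shown. Capitals mark the matches, and sequences run along the strand of the gene. In the order printed the windows are chr1:1013247-1013546 (plus), chr10:89414318-89414617 (plus), chr1:78649539-78649838 (plus), chr21:41420308-41420607 (plus), chr19:17405581-17405880 (minus) and chr14:94110486-94110785 (plus).
ISG15: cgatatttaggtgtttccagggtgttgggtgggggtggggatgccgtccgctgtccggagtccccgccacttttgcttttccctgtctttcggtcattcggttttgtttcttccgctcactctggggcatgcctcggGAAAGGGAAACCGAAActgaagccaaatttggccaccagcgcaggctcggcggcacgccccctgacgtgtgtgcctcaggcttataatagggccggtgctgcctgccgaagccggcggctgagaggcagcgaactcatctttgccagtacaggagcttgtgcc
IFIT5: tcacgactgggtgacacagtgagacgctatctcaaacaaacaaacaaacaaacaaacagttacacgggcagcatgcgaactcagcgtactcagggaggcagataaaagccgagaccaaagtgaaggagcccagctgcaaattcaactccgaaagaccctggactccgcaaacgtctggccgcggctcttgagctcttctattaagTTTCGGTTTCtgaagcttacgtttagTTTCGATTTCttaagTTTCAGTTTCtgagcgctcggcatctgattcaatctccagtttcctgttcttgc
IFI44: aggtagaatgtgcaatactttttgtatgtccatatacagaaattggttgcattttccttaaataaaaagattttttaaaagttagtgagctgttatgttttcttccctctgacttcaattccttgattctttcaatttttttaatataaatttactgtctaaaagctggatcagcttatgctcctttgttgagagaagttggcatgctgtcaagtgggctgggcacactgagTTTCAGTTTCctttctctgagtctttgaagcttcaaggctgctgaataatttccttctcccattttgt
MX1: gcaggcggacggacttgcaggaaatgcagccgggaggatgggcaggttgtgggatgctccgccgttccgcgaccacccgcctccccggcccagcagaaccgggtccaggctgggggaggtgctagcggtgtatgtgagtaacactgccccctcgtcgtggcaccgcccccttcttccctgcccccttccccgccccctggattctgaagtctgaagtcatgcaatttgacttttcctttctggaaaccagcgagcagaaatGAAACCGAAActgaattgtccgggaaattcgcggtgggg
BST2: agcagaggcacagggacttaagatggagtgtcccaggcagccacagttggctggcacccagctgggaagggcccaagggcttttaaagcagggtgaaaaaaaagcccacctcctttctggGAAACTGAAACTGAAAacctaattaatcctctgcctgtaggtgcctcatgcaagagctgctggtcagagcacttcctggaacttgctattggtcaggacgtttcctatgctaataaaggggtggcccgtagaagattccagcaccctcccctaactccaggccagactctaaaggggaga
IFI27: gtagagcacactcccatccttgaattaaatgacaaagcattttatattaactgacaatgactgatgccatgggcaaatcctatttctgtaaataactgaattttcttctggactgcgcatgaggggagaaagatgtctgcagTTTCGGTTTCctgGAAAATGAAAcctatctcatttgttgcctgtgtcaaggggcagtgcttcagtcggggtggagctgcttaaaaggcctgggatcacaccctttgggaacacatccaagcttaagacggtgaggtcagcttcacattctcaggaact

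In ISG15 the matches overlapped and began at bases -113 and -107 from the transcription start, and in BST2 they began at -130 and -124. IFIT5 held 3 matches, at -45, -19 and -4. IFI44 held 1 at -18, MX1 held 1 after the start at base 12, and IFI27 held 2, at -108 and -95. MX1 had 3 windows, and IFI44 and IFI27 had 2 each, of which the first with a match is shown. Behind these promoters ISG15, IFIT5 and IFI44 averaged 23.2, 13.1 and 8.40 CPM per kilobase in knockout cells and 27.7, 12.8 and 8.50 in wildtype cells. BST2 and IFI27 averaged 0.191 and 0.0448 CPM per kilobase in knockout cells and 0.0513 and 0.0518 in wildtype cells.

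GC content moved with several of the lower values, and its part in them was not tested beyond the correction given here. For the 14 tested members above the median GC content of all genes tested (48%), the median log2 difference from the wildtype mean was -0.071 in knockout replicate 1, -0.075 in replicate 2 and 0.034 in replicate 3. In wildtype replicates 1, 2 and 3 the same members were at 0.030, -0.039 and 0.038, and 10 of the 14 lay below the wildtype mean in wildtype replicate 2 as in each of knockout replicates 1 and 2. In the knockout replicates, over all 7179 tested genes above that GC content these medians were -0.063, -0.060 and 0.0021. For the 14 members at or below it they were 0.052, 0.026 and 0.0076, and for all such genes 0.047, 0.043 and 0.0016. ISG15, at 63.4% GC, was the most GC-rich of the 4 members with an unadjusted p under 0.05, and after GC correction its log2 fold change was -0.16 (SE 0.0640, adjusted p = 0.224 by edgeR). IRF3, at 59% GC, had log2 fold changes of -0.10 before and -0.033 after correction. IFIH1 and IFI44L, at 43.3% and 37.8% GC, stood at -0.41 and 0.38 after correction. Without knockout replicate 3 edgeR called 3 members lower (ISG15, IRF3 and IFI35), where it called 9.1% of all genes lower.

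**Figure D5:**
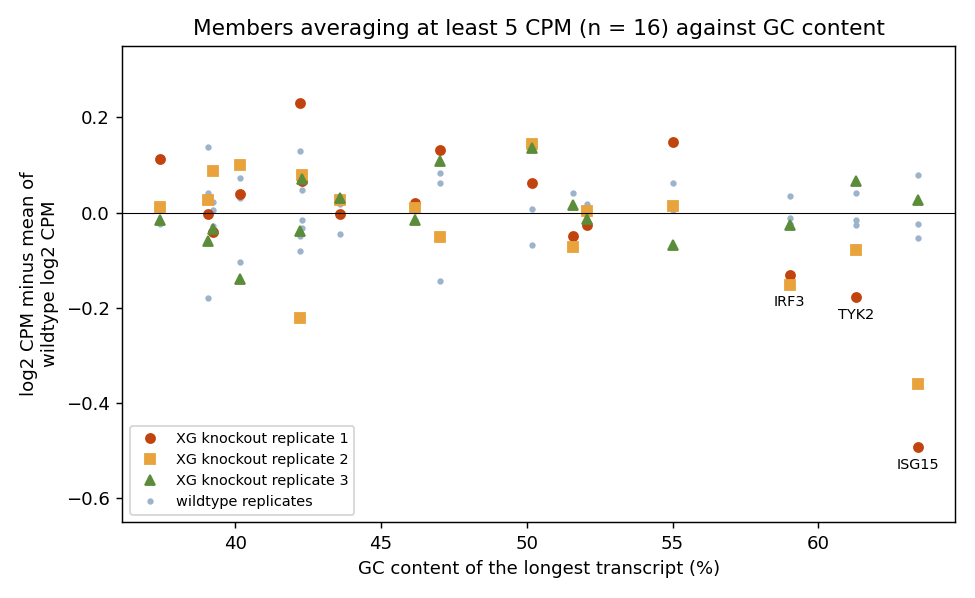
Log2 CPM of the 16 tested members averaging at least 5 CPM, less the wildtype mean, against GC content of the longest transcript in percent, for XG knockout replicates 1 (circles), 2 (squares) and 3 (triangles) and for the wildtype replicates (small dots). ISG15, at 63.4% GC, lies low in knockout replicates 1 and 2 and near 0 in replicate 3.

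Other genes of the pathway, 64 in all, came from a list of ligands, receptors, signalling proteins, sensors and further targets. All 8 interferon genes listed, IFNA1, IFNB1, IFNE, IFNK, IFNG, IFNL1, IFNL2 and IFNL3, had 0 counts in every library. Of the 64 genes 40 were tested, with 0 called higher and 1 lower by edgeR, where it called 0.444% of all genes higher and 0.915% lower. Their median log2 fold change was -0.022, beside 0.0019 for all genes tested. The called gene was LGALS3BP, a secreted glycoprotein that binds galectins, at 36.1, 36.2 and 42.2 CPM in knockout libraries, against 44.3, 45.6 and 46 CPM in wildtype libraries. Its knockout values were all under its wildtype values, replicate 3 closest (log2 fold change -0.25, SE 0.0565, adjusted p = 0.0372 by edgeR). LGALS3BP has 60.5% GC, and after GC correction its log2 fold change was -0.17 (adjusted p = 0.0290 by edgeR). Dropping wildtype replicate 1, 2 or 3 ended its call, at adjusted p values of 0.151, 0.191 and 0.191 by edgeR, and so did dropping knockout replicate 1 (0.131) or 2 (0.183). In those 5 fits its log2 fold change lay between -0.26 and -0.21. Without knockout replicate 3 it was -0.32 (adjusted p = 3.45e-06 by edgeR).

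Genes with an unadjusted p under 0.05 that missed the threshold, named after their values were seen, were SLFN5, TRIM5, IFITM3 and IFITM2. Among all genes tested, 6.98% were higher and 9.81% lower at an unadjusted p under 0.05. SLFN5, a Schlafen family protein, had 12.7, 12.8 and 12.2 CPM in knockout libraries and 11, 10.4 and 8.85 CPM in wildtype libraries, without overlap (log2 fold change 0.31, SE 0.0840, adjusted p = 0.0727 by edgeR). Other settings gave SLFN5 adjusted p values of 0.00914 to 0.272, the lowest without knockout replicate 3. TRIM5, which recognises retroviral capsids, had 29, 36 and 33 counts in knockout and 62, 50 and 31 counts in wildtype libraries (log2 fold change -0.70, SE 0.214, adjusted p = 0.106 by edgeR), with adjusted p values of 0.0363 to 0.380 over the other settings that gave one (not DESeq2 or the filter of 100 counts), the lowest with no filter on low counts. IFITM3 and IFITM2, membrane proteins that block virus entry, had log2 fold changes of -0.16 and -0.13, with adjusted p values of 0.153 and 0.266 by edgeR. The genotypes did not overlap for IFITM3 and overlapped for IFITM2. Over all genes tested, 10.7% were higher and 9.8% lower without overlap. Without knockout replicate 3 the adjusted p of IFITM2 was 0.0372 by edgeR. After GC correction IFITM3 and IFITM2 stood at -0.11 and -0.086 (unadjusted p = 0.0502 and 0.0898 by edgeR). SLFN5 and TRIM5 stood at 0.27 and -0.73 after that correction. IFITM2 shared exon bases with IFITM1 on the same strand, so fragments falling in both were not counted. Among signalling proteins the smallest p values were those of PIAS1, which restrains STATs, and JAK2, the kinase of IFNGR2, at log2 fold changes of 0.080 and 0.058. Among further sensors and adaptors they were those of the ubiquitin ligase TRAF3 and of TICAM1, the adaptor of TLR3, at -0.052 and -0.11, and at -0.020 and -0.014 after GC correction. None of these 4 was called.

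The authors' deposited table, made with DESeq2, gave an adjusted p for 12 of the 37 members and called 0 of them, where it called 2.66% of the genes with a value. The lowest adjusted p of a member in the authors' deposited table was 0.196, for ISG15, at a log2 fold change of -0.26. The sign in the authors' deposited table matched that of knockout over wildtype from the counts in 99.2% of the genes tested.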

How the data were processed

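Messenger RNA of 3 XG knockout and 3 wildtype TC-71 libraries was prepared with a stranded kit, per the labels' protocols. STAR 2.7.6a and GRCh38 are named in the submitters' processing notes. The deposited counts are fragments per GENCODE gene, made by the authors with featureCounts 2.0.1 on the reverse strand, per the file headers. Neither multi-mapping reads nor reads over overlapping genes were counted, since the command in the header sets no such option. The authors also deposited log2 fold changes with standard errors, p-values, a baseMean signal and a Wald score per gene; DESeq2 1.38.3 is named in the submitters' processing notes. Count columns were matched to samples by title, and 45 empty chromosome Y copies were dropped.

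The filterByExpr filter (minimum count 10, minimum total 15) retained 14425 genes. TMM-scaled counts were tested two-sided with edgeR 4.0.16 (glmQLFit, glmQLFTest) under R 4.3.3 without covariates, and p-values were adjusted by Benjamini-Hochberg over all tested genes. Each SE was derived from the log2 fold change and its F value. CPM are counts over TMM-adjusted library sizes. Precision follows depth, and SEs of the members' log2 fold changes ran from 0.0237 to 0.451. Every pair of replicates differed beyond sampling noise. The chi-square per gene was 1.43 to 1.66 for wildtype pairs. Among knockout pairs it was 2.46 for replicates 1 and 2, 4.38 for 1 and 3, and 4.01 for 2 and 3. GC content was that of the longest GENCODE transcript, and a lowess trend (span 0.5) was removed per library. Medians by GC content used log2(CPM + 0.5). Alternatives were other scalings, DESeq2 1.42.0, limma 3.58.1 voom, other count filters, a replicate block, each library left out and a threshold of 0.01.

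Every member was named, tested ones with values and the others with counts. From each list of further pathway genes, called genes or, with none called, the pair with the smallest p were named. Scripts were tested on simulated data. Members, lists and tests were chosen with earlier results of these data known.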

Additional observations from a re-analysis of the deposited data

How the results depend on the processing

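No setting tried called a member higher in knockout cells. Members called lower numbered 0 in the edgeR fit and 1 with no filter on low counts (ISG15), and leaving out single libraries gave 0 to 3, the 3 without knockout replicate 3. Genes called numbered 196 in the edgeR fit, 33 at an adjusted p of 0.01, 647 with no filter on low counts, 339 after GC correction, and 18 to 1851 with a library left out (24, 26 and 18 without wildtype replicates 1, 2 and 3; 67, 41 and 1851 without knockout replicates 1, 2 and 3). With the replicate number as a block 37 genes and 0 members were called. Deviations of same-numbered libraries from their group means were hardly correlated over the genes tested (-0.046, -0.024 and -0.051). These values cannot show whether same-numbered libraries were handled together, which was not tested. LGALS3BP was not called with the block (adjusted p = 0.0719 by edgeR) or the filter of 100 counts (0.0566). The members' median log2 fold change lay between -0.0052 and 0.025 with a library left out. GC correction turned the sign of IFNGR1 (-0.033), JAK1 (-0.010), TYK2 (0.030), CGAS (-0.0052), MAVS (0.0052), TBK1 (-0.030), IFIT5 (-0.0086) and IFI6 (0.043), none of them called. IFI6 also turned with upper quartile scaling (0.0078) and with no filter (4.70e-05). With a library left out, log2 fold changes ran from -0.010 to 0.11 for IFNAR2, -0.055 to 0.072 for IFNGR1, -0.027 to 0.077 for IFNGR2, -0.0032 to 0.015 for JAK1, -0.060 to 0.54 for IRF7, -0.42 to 0.035 for IRF9, -0.0038 to 0.029 for CGAS, -0.040 to 0.030 for TBK1, -0.13 to 0.089 for IFIT1, -0.0016 to 0.060 for IFIT5, -0.30 to 0.49 for OASL, -0.076 to 0.10 for IFI6 and -0.10 to 0.049 for IFI44. The cause of these changes was not tested. Members with few counts, such as OASL and IRF9, have SEs of 0.451 and 0.350. The counts of IRF9 leave out fragments shared with AL136295.5.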
